A study of Homo sapiens with 12 samples.

Results

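The cells examined here were A375 cells, a human melanoma line that carries mutant BRAF, exposed for 8 h to vemurafenib and tretinoin together, and they were compared with A375 cells given the vehicle DMSO for the same time. The set was chosen by the sample titles: the 3 Combination libraries and the 3 DMSO libraries, 6 of the 12 RNA sequencing libraries of the series. The other 6 libraries, 3 with vemurafenib alone and 3 with tretinoin alone, were used to show where the combination differed from each drug. Every group, DMSO included, was listed at 5 µM for 8 h, and the labels did not say whether 5 µM was the amount of each drug or of both in the combination. All 4 groups are 1 cell line, and nothing states that the 3 libraries of a group came from separate cultures, so the p-values measure only the spread between these libraries, which may be technical.

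Vemurafenib inhibits mutant BRAF, the kinase that drives MEK and ERK in such cells, and ERK in turn raises the transcription of growth factors, cyclins and its own inhibitors. Tretinoin is all-trans retinoic acid, the ligand of the retinoic acid receptors, which bind DNA as dimers with retinoid X receptors and switch on genes for retinoid breakdown, HOX genes and differentiation genes. The study predicted the pair from a network around BRAF, and the question followed here is which pathways and gene classes moved with both drugs, also outside that network. It built one such network with TCGA tumours and another with a second tumour set, and the TCGA one is meant wherever the BRAF network is named below.

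Values are CPM, the counts of a gene relative to the total of its library after scaling by the trimmed mean of M values (TMM), and n is 3 libraries per group throughout. Of the genes counted, 16740 had enough counts to be tested. Tests used edgeR's quasi-likelihood fit over all 12 libraries with Benjamini-Hochberg adjustment, and a gene is said to have risen or fallen where its adjusted p was under 0.05. Total counts ran from 16265949 to 20417536 in DMSO and from 17408109 to 21534377 with the combination, a difference that the exact two-sided permutation test put at p = 0.2, with 0.1 the smallest value it can give. Levels are relative to the total of each library, so fewer cells and less RNA per cell cannot be told apart. The melanocyte factor MITF (17.6 CPM in DMSO), the calcium-binding protein S100B (9.08 CPM) and the adhesion molecule MCAM (239 CPM) were present. The other melanoma markers checked were low: PMEL was at 1.16 CPM in DMSO, and MLANA had at most 19 counts in any library and was not tested. The pigment enzyme tyrosinase (TYR) had at most 1 count in any library, and the neural crest factor SOX10 had none. Fragments that overlapped more than 1 annotated gene were left out of the counts, and the part of this in the SOX10 value was not tested.

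Promoters of 8 genes are printed first, because the results below turn on their groups: targets of the retinoic acid receptors (RARB, CYP26A1), targets of ERK signalling (SPRY2, CXCL8, EGR1), DNA replication (MCM2), ribosome assembly (PNO1) and the lysosome (LAMP1). Each is 300 bases from RefSeq on GRCh38.p14, from 250 bases before the annotated start to 50 after it, written 5′ to 3′ on the strand of the gene. Capitals mark matches to the motif named for each gene, found by a search of both strands, and a match describes the letters only. RARB (chr3:25428013-25428312, plus strand) and CYP26A1 (chr10:93073643-93073942, plus strand) are shown for the DR5 retinoic acid response element, a pair of receptor sites 5 bases apart, which was found in 0.09% of the 35116 promoters in the table. In CYP26A1 the match lies on the opposite strand. Where the table held several promoters of a gene, the printed one holds the motif.
RARB: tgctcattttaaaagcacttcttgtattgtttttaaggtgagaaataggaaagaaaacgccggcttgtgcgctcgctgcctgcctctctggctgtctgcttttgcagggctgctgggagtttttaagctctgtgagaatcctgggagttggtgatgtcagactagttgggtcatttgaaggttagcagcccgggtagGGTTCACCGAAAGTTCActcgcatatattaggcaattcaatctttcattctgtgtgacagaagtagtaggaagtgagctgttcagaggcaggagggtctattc
CYP26A1: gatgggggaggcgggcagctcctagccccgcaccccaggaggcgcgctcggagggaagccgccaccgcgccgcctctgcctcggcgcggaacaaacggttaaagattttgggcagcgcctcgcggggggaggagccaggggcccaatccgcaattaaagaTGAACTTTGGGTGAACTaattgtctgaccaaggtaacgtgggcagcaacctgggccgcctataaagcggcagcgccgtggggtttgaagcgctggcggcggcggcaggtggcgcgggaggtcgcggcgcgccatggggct

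SPRY2 (chr13:80341077-80341376, minus strand) is shown for CCGGAA, a core of ETS factor sites found in 17.25% of all promoters, CXCL8 (chr4:73740319-73740618, plus strand) for TGANTCA, the AP-1 site, found in 7.71%, and EGR1 (chr5:138465229-138465528, plus strand) for the CArG box that serum response factor binds, found in 1.29%.
SPRY2: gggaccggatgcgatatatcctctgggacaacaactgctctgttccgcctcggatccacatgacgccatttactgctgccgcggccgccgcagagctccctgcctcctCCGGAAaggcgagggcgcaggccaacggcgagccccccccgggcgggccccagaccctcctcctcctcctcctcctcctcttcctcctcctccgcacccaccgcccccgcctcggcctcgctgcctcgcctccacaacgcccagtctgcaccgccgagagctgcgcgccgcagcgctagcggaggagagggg
CXCL8: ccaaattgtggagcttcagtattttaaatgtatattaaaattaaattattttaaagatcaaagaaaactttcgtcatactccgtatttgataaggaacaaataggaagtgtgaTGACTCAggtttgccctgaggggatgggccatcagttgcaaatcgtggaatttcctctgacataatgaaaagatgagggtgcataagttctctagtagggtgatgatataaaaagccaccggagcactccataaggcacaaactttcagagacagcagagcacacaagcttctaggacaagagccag
EGR1: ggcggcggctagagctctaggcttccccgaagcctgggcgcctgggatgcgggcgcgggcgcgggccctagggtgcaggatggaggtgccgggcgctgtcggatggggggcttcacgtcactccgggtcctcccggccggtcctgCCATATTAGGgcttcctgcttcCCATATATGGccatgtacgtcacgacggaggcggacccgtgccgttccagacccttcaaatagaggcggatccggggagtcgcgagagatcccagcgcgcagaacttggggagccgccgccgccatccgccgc

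MCM2 (chr3:127598161-127598460, plus strand) is shown for TTTNGCGC, an E2F site found in 1.79% of all promoters; its 2 matches, on opposite strands, overlap. PNO1 (chr2:68157638-68157937, plus strand) and LAMP1 (chr13:113296989-113297288, plus strand) are shown for CACGTG, the E-box bound by MYC and by the TFEB family, found in 7.26%. LAMP1 holds 6 matches.
MCM2: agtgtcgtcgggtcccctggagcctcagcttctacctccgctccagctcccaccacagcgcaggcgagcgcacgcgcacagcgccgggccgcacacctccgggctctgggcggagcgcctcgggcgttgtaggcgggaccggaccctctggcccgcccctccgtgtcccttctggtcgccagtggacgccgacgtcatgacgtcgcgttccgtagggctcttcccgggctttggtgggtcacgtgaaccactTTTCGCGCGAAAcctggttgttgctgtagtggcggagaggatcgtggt
PNO1: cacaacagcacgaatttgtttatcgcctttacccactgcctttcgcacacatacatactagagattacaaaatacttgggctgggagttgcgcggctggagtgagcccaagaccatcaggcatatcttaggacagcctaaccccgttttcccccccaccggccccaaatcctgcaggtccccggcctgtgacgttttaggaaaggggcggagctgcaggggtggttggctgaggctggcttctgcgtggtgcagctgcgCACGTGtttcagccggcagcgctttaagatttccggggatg
LAMP1: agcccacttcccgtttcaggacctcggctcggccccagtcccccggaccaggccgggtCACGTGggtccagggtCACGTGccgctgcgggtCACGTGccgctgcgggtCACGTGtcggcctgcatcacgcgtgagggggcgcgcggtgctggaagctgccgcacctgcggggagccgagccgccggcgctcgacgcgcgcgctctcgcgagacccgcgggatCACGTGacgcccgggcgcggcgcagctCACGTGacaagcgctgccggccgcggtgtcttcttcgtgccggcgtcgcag

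Of the 48 replication genes tested, 41 had a promoter in the table, and 16 of their 52 promoters (30.77%) held TTTNGCGC. For ribosome biogenesis, 59 of 68 genes had 72 promoters, of which 23 (31.94%) held CACGTG and 38 (52.78%) held CCGGAA. Over the promoters of all genes tested these shares were 2.57% for TTTNGCGC, 9.27% for CACGTG and 25.37% for CCGGAA. Fewer than 80% of the retinoid, ERK and lysosome genes had a promoter in the table, so no share is given for them.

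Relative to DMSO, 27.1% of the genes tested rose and 26.5% fell with the combination, and these are the background against which each group is read below. These shares differ by level: in the highest of 4 equal bins of mean level, 14.1% of protein-coding genes rose and 47.7% fell. In the second lowest bin 39.9% rose and 19.5% fell. The groups were not matched for level. The falling shares of proteasome subunits (44.1%), translation factors (50%) and mitochondrial ribosomal proteins (50%) lie near 47.7%. The rising share of ZNF genes (32.4%) lies below 39.9%. The median log2 fold change of all genes tested was 0.025. Scaling by total counts alone moved the median by 0.162, with 6242 genes rising and 2916 falling in place of 4537 and 4440, so the small shifts of large groups depend on the scaling, and this is stated where a group's direction turned. Fragments were counted without regard to strand, and those that overlapped more than 1 annotated gene were left out. Fragments of a stretch shared by a gene and an annotated antisense partner thus count for neither, and the part of this in their values was not tested. A gene could pass the count filter through 1 group alone, and group counts cover only members that passed. Where leaving out 1 library moved the larger of a group's counts by more than 1.5 times, that library is named; counts of 5 or fewer in the other direction often changed in this way.

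**Figure D1:**
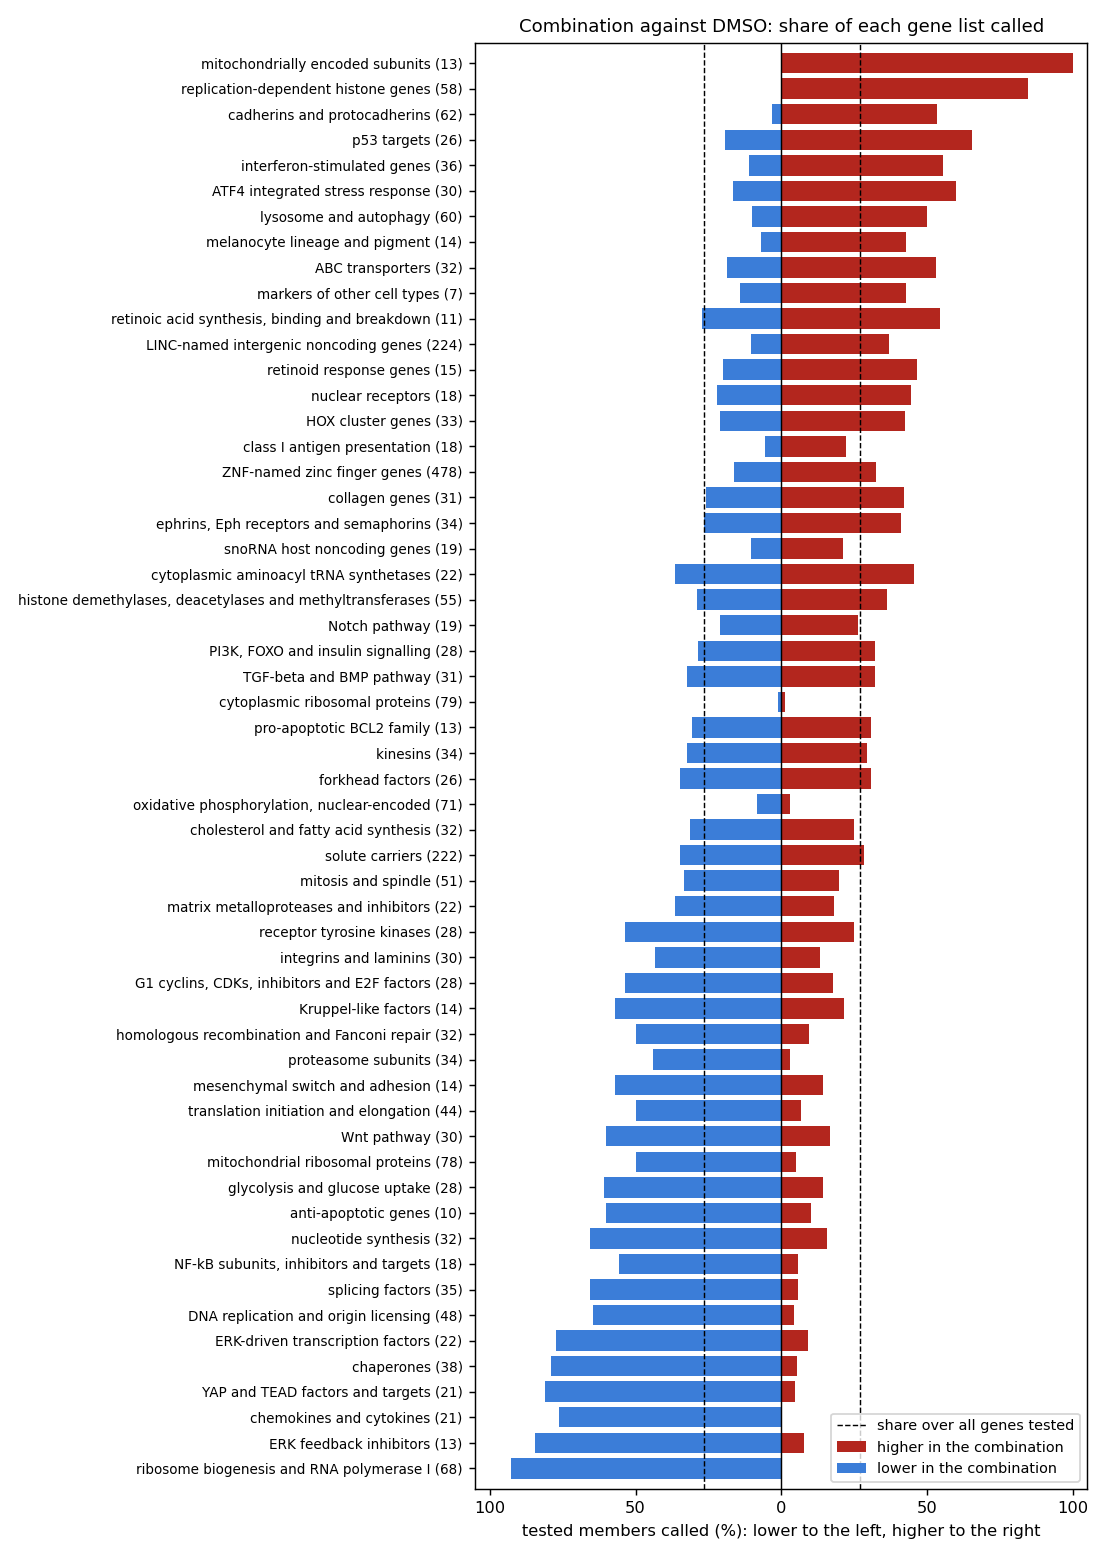
Share of each gene group called higher (red) or lower (blue) with the combination relative to DMSO by edgeR at an adjusted p under 0.05, in percent of the members tested, 1 row per group with the number tested in brackets. Ribosome biogenesis (92.6% lower), the ERK feedback inhibitors (84.6% lower), YAP targets (81% lower) and chaperones (78.9% lower) lie at the lower end, and the mitochondrially encoded genes (100% higher) at the other.

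Most genes listed as targets of ERK signalling fell, while ERK activity itself was not measured in these libraries. Among 13 feedback inhibitors of the pathway, which are phosphatases, Sprouty and SPRED proteins that damp ERK signalling, 11 fell and 1 rose, with a median log2 fold change of -2.15. None of the 13 belongs to the TCGA-based BRAF network, while SPRY2 and SPRY4 belong to the other one. SPRY4 (ENSG00000187678.8, chr5:142310427-142326455), a Sprouty inhibitor of receptor signalling, was at 92.0, 89.3 and 93.7 CPM in DMSO and at 0.935, 1.21 and 1.36 CPM with the combination. It fell by 6.27 on the log2 scale (SE 0.15, adjusted p = 1.46e-15), the largest fall among genes with a mean of at least 5 CPM in the higher group. DUSP6 (ENSG00000139318.7, chr12:89347232-89353271), the phosphatase that removes the activating phosphates of ERK, was at 127, 116 and 122 CPM in DMSO and at 1.71, 1.44 and 2.31 CPM with the combination, a 66.4-fold lower level (adjusted p = 7.66e-16). In both genes the groups lay far apart and did not overlap. SPRY2, whose promoter is printed above, was 19.2-fold lower, SPRY1 10.3-fold lower and DUSP5, a nuclear ERK phosphatase, 7.71-fold lower.

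The group of transcription factors downstream of ERK, which also holds the survival gene IER3, moved the same way: 17 of 22 fell, 2 rose, and the median was -1.53. Outside the BRAF network, to which MYC and ETV5 belong, 15 fell and 2 rose, with a median of -1.18. ETV5, a PEA3 factor of the ETS family, was at 71.1, 76.5 and 67.2 CPM in DMSO and at 2.64, 2.65 and 2.67 CPM with the combination, 26.9-fold lower. FOSL1, an AP-1 subunit, was 8.33-fold lower, the stress factor MAFF 17.5-fold lower and the survival gene IER3 10.2-fold lower. MYC, a transcription factor that drives ribosome and nucleotide synthesis, was at 55.2, 53.3 and 59.1 CPM in DMSO and at 5.67, 6.27 and 5.66 CPM with the combination, 9.51-fold lower (adjusted p = 9.18e-15). EGR1, an immediate early factor with the CArG boxes shown above, fell from 8.48 ± 0.242 to 1.31 ± 0.199 CPM (SD, n = 3). Both factors lay lower in each combination library than in any DMSO library. ELF3, an epithelial ETS factor, went against the group: it had 0, 0.135 and 0 CPM in DMSO and 20.03, 18.4 and 15.2 CPM with the combination (adjusted p = 1.25e-12), and no fold is given because DMSO held too few counts.

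**Figure D2:**
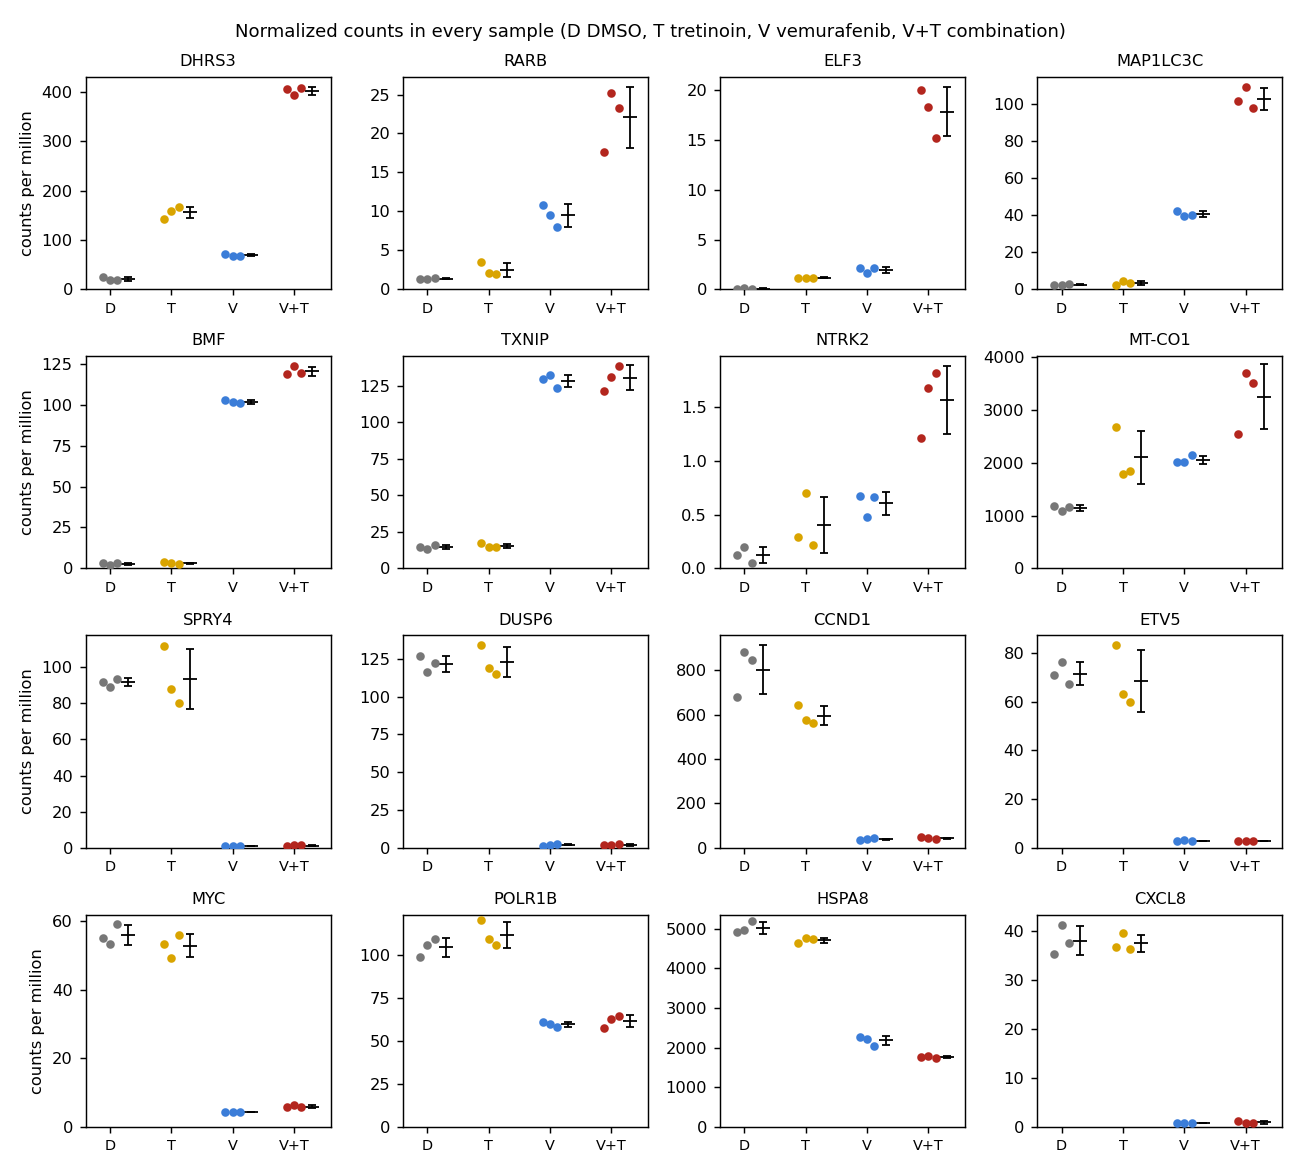
Level of 16 genes in CPM, on linear axes that start at 0, with 1 point per library and the mean ± SD beside it for DMSO (D), tretinoin (T), vemurafenib (V) and the combination (V+T). The mean of SPRY4 is 91.7 CPM in DMSO and 1.17 CPM with the combination, while that of DHRS3 is 20.8 and 402 CPM.

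Many secreted signals fell. Of 21 chemokines and cytokines tested, out of 29 listed, 16 fell and none rose by edgeR, with a median of -2.03, while 1 was higher at an unadjusted p under 0.05 and DESeq2 called 2 higher. The number that rose depended on single libraries: it was 3 without DMSO replicate 1, 2 without DMSO replicate 2 or combination replicate 2, 1 without combination replicate 1 or 3 and 0 without DMSO replicate 3, while 14 or 15 fell in each of these fits. CXCL8, the neutrophil chemokine IL-8, was at 35.3, 41.3 and 37.6 CPM in DMSO and at 1.16, 0.790 and 0.724 CPM with the combination, 43.2-fold lower. CXCL1, a related chemokine, was 40.4-fold lower, and LIF, a cytokine of the IL-6 family, 8.91-fold lower. The angiogenic factor VEGFA was at 62.0 CPM in DMSO and 60.5 CPM with the combination and did not pass the test (adjusted p = 0.689). AREG, a ligand of the EGF receptor, fell from 8.25, 12.1 and 10.9 CPM to 0.330, 0.557 and 0.226 CPM. The members of the group together held 547, 558 and 577 CPM in DMSO and 173, 181 and 175 CPM with the combination, so the sums did not overlap. Among 18 NF-kB subunits, inhibitors and targets, 10 fell and 1 rose: TNFAIP3, a deubiquitinase that ends NF-kB signalling, was 2.85-fold lower and the subunit RELB 2.12-fold lower, while NFKBIA, the main inhibitor, did not pass (adjusted p = 0.501).

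Genes of other growth pathways fell in part. FST, the secreted follistatin that binds activin, was at 425, 570 and 513 CPM in DMSO and at 14.9, 15.8 and 15.5 CPM with the combination, 32.6-fold lower. In the YAP and TEAD group of 21 genes, 17 fell and 1 rose. ANKRD1, a nuclear cofactor and YAP target, was 15.7-fold lower, and the matricellular protein CYR61 fell from 311 ± 62.4 to 50.4 ± 2.16 CPM, 6.16-fold lower. Of 30 Wnt pathway genes, 18 fell and 5 rose: the receptor FZD8 was 4.98-fold lower and the Wnt antagonist DKK1 4.28-fold lower, whereas NOTUM, an enzyme that inactivates Wnt ligands, was 4.44-fold higher at a low level of 1.74 CPM. Of 28 receptor tyrosine kinases, 15 fell and 7 rose. EPHA2, an ephrin receptor, was 4.88-fold lower and EGFR 2.02-fold lower, while ERBB3, the kinase-weak partner of ERBB2, rose from 223, 184 and 208 CPM to 425, 468 and 448 CPM, 2.18-fold higher. NTRK2, a neurotrophin receptor, rose from 0.129, 0.203 and 0.0528 CPM to 1.21, 1.67 and 1.81 CPM, still a low level. The groups of libraries did not overlap for any of these receptor kinases. Of 14 Kruppel-like factors 8 fell and 3 rose, KLF4 being 3-fold lower.

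A larger share of genes fell among those for entry into S phase than among those for mitosis. Of 28 genes for G1 cyclins, their kinases, inhibitors and E2F factors, 15 fell and 5 rose. CCND1, the D-type cyclin that ERK maintains, was at 678, 885 and 848 CPM in DMSO and at 46.1, 41.3 and 40.9 CPM with the combination, 18.8-fold lower (adjusted p = 2.96e-15). CDC25A, the phosphatase that activates CDK2, was 3.34-fold lower and E2F1 2.4-fold lower. The kinase inhibitor genes CDKN1C and CDKN1B moved the other way, CDKN1C from 10.4 ± 0.835 to 23.9 ± 4.64 CPM and CDKN1B from 51.5 ± 5.7 to 70.4 ± 4.79 CPM. CCND2, another D-type cyclin, rose from 0.709, 1.22 and 0.475 CPM to 6.33, 4.69 and 5.70 CPM, still a low level.

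Of 48 genes for origin licensing and DNA replication, 31 fell and 2 rose, with a median of -0.33, and 24 fell and 6 rose with total counts alone. The changes were smaller than those of the ERK genes. MCM2, a subunit of the replicative helicase with the E2F sites shown above, was at 358, 396 and 374 CPM in DMSO and at 287, 303 and 311 CPM with the combination, 1.25-fold lower (adjusted p = 0.000646). TIPIN, a fork protection factor, was 2.26-fold lower, MCM10 2.19-fold lower and CDC6, the licensing factor, 1.89-fold lower. Leaving out any 1 library left at most 1 of the group rising. Among 32 genes of nucleotide synthesis 21 fell and 5 rose. RRM2, the ribonucleotide reductase subunit, went from 247, 245 and 252 CPM to 118, 125 and 125 CPM, CTPS1, which makes CTP, was 1.93-fold lower and PPAT, the first enzyme of purine synthesis, 1.95-fold lower. CAD, the first enzyme of pyrimidine synthesis, overlapped between groups and did not pass (adjusted p = 0.319). Of 51 genes for mitosis and the spindle, 17 fell and 10 rose, which turned to 10 falling and 22 rising with total counts alone. UBE2S, a ubiquitin-conjugating enzyme of the anaphase-promoting complex, was 1.81-fold lower, and the proliferation antigen MKI67 stood at 258, 187 and 272 CPM against 282, 266 and 264 CPM (adjusted p = 0.16). Of 32 homologous recombination and Fanconi genes, 16 fell and 3 rose, against 8 in each direction with total counts alone. BRCA1 overlapped between the groups.

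**Figure D3:**
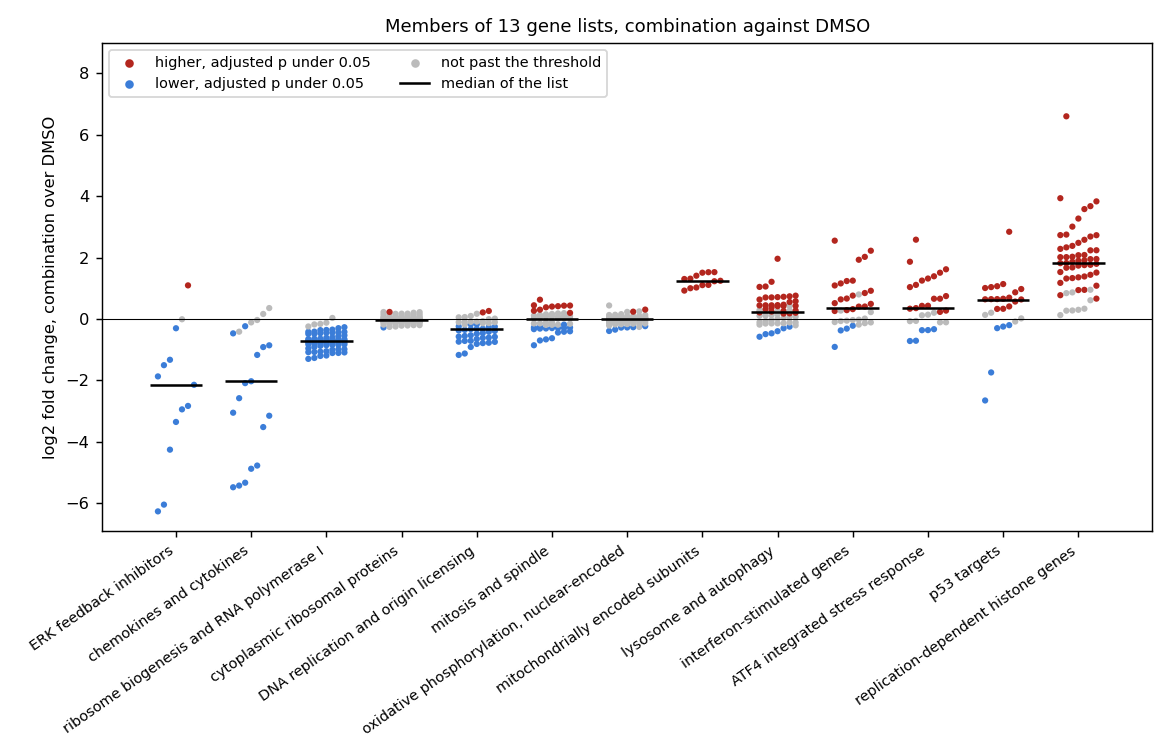
Log2 fold change of every tested member (1 point each) of 13 gene groups with the combination relative to DMSO, 1 column per group, coloured by whether the member rose, fell or did not pass the test, with the group median as a bar. All 13 mitochondrially encoded members lie above 0, and the ribosome biogenesis members, with a median of -0.71, reach from -1.30 to 0.031.

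Ribosome production had the largest share of falling members among the 56 groups. Of 68 genes for RNA polymerase I, rRNA processing and ribosome assembly, 63 fell and none rose by edgeR, nor by DESeq2 or at an unadjusted p under 0.05 (0 of 68), with 61 to 64 falling when 1 library was left out and 58 with total counts alone. The group held 17213, 18802 and 17545 CPM in DMSO and 12174, 11403 and 11525 CPM with the combination. PNO1 (ENSG00000115946.7, chr2:68157844-68176238), an assembly factor of the small subunit with the E-box shown above, was at 65.8, 73.5 and 74.7 CPM in DMSO and at 25.1, 31.2 and 30.3 CPM with the combination, 2.47-fold lower (log2 -1.30, SE 0.082, adjusted p = 6.39e-10). The growth regulator LYAR was 2.42-fold lower, RRP9, a component of the U3 particle, 2.31-fold lower and NOP56, a core protein of box C/D particles, 1.84-fold lower. POLR1B, a catalytic subunit of RNA polymerase I, went from 98.6, 106 and 109 CPM to 57.6, 62.8 and 64.4 CPM. The groups of libraries did not overlap for any of these genes. The ribosomal proteins themselves did not follow: of 79 tested, 1 rose and 1 fell, with a median of -0.026, and with total counts alone 16 rose and none fell. Their sum lay between 89985 and 102003 CPM in DMSO and between 95812 and 98064 CPM with the combination, so the combination libraries fell within the range of DMSO. The one that fell was RPL23A (1.21-fold lower, adjusted p = 0.0378, called in 3 of 6 fits without 1 library). Of the 78 mitochondrial ribosomal proteins, 39 fell and 4 rose. Without 1 library 28 to 36 fell, and with total counts alone 21 fell and 9 rose. MRPL36 was 1.89-fold lower.

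Genes for folding, splicing and translation fell in part. Of 38 chaperones 30 fell and 2 rose, and the group went from between 28411 and 30104 CPM in DMSO to between 17859 and 18488 CPM. HSPA8 (ENSG00000109971.13, chr11:123057489-123063230), the constitutive HSP70, was at 4914, 4967 and 5187 CPM in DMSO and at 1760, 1795 and 1747 CPM with the combination, 2.84-fold lower (adjusted p = 1.2e-11). CCT2, a subunit of the chaperonin that folds actin and tubulin, was 1.63-fold lower and the mitochondrial chaperonin HSPD1 1.56-fold lower. HSPA1A and HSPA1B, the inducible HSP70 pair, were 2.34-fold and 2.36-fold lower, but the copies are nearly identical, so how their fragments were divided is uncertain. Among 35 splicing factors 23 fell and 2 rose, and with total counts alone 14 fell and 4 rose. SRSF7, an SR protein, was 1.99-fold lower and SRSF1 1.81-fold lower. Of 44 initiation and elongation factors 22 fell and 3 rose, among them the cap-binding protein EIF4E, which went from 95.0, 112 and 104 CPM to 58.6, 56.5 and 51.9 CPM. Of 34 proteasome subunits 15 fell and 1 rose, but only 7 fell with total counts alone, and the change was small in PSMD14, the deubiquitinating subunit (1.44-fold lower).

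The integrated stress response, in which ATF4 raises amino acid genes, moved the other way. Of 30 genes 18 rose and 5 fell, with a median of 0.34. NUPR1, a small stress cofactor, was at 1.35, 2.97 and 1.95 CPM in DMSO and at 15.9, 10.7 and 10.9 CPM with the combination, 5.98-fold higher. VLDLR, a lipoprotein receptor, was 3.64-fold higher, CTH, which makes cysteine, 2.84-fold higher and PSAT1, of serine synthesis, 1.58-fold higher. ASNS, asparagine synthetase, rose from 1.03, 0.946 and 0.422 CPM to 2.59, 2.23 and 2.40 CPM, a low level that rests on 16, 14 and 8 counts in DMSO. The part of dropped fragments in its level was not tested. TRIB3, an ATF4 target that feeds back on the pathway, fell from 171 ± 22.5 to 132 ± 1.8 CPM. The aminoacyl tRNA synthetases split, with 10 of 22 rising and 8 falling. AARS, for alanine, rose from 263, 283 and 276 CPM to 520, 522 and 526 CPM, GARS, for glycine, and WARS, for tryptophan, rose 1.27-fold and 1.6-fold, and FARSA, for phenylalanine, was 1.7-fold lower.

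Energy genes divided by genome. All 13 protein-coding genes of the mitochondrial DNA rose, with a median of 1.24, while of 71 nuclear-encoded subunits of the respiratory chain and ATP synthase 6 fell and 2 rose, and with total counts alone 2 fell and 21 rose. MT-CO1, the catalytic subunit of complex IV, was at 1190, 1090 and 1155 CPM in DMSO and at 2541, 3696 and 3515 CPM with the combination, 2.84-fold higher (adjusted p = 9.96e-08). MT-ND4, a complex I subunit, was at 529, 438 and 548 CPM and at 965, 1746 and 1641 CPM. Combination replicate 1 was the lowest of its group in both genes yet above each DMSO library, and the 13 genes rose in each of the 6 fits without 1 library. The share of all counts that fell in mitochondrial genes was 0.592% to 0.689% in DMSO and 1.206%, 1.861% and 1.758% in combination replicates 1, 2 and 3, and the part of RNA quality in it was not tested. Nuclear genes such as SDHA, of complex II, overlapped between the groups (adjusted p = 0.62).

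Of 28 genes for glucose uptake and glycolysis 17 fell and 4 rose, and 5 of the 28 belong to the BRAF network. HK2, the hexokinase of tumour cells, was at 109, 121 and 128 CPM in DMSO and at 39.2, 42.5 and 39.0 CPM with the combination, 2.96-fold lower. SLC2A3, a glucose transporter, was 4.26-fold lower, and LDHA, lactate dehydrogenase, fell from 1260 ± 75.1 to 823 ± 62.8 CPM. TXNIP (ENSG00000265972.5, chr1:145992435-145996600), an arrestin that removes glucose transporters from the membrane, went the other way, from 15.0, 13.7 and 16.3 CPM to 121, 131 and 139 CPM, 8.69-fold higher (log2 3.12, SE 0.086, adjusted p = 9.18e-15). Its relative ARRDC4 was 2.73-fold higher. Cholesterol and fatty acid genes split, 10 falling and 8 rising of 32, which became 6 and 10 with total counts alone. HMGCS1, an enzyme of cholesterol synthesis, was 1.76-fold lower and the regulator SREBF1 2.04-fold higher.

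Of 60 lysosome and autophagy genes 30 rose and 6 fell, and outside the BRAF network, to which 15 of them belong, 20 rose and 6 fell. The group held 5494, 5797 and 5463 CPM in DMSO and 6416, 6644 and 6726 CPM with the combination. ULK1, the kinase that starts autophagy, was at 31.9, 32.4 and 29.3 CPM in DMSO and at 76.8, 69.9 and 69.5 CPM with the combination, 2.31-fold higher. GABARAPL1, an ATG8 protein of autophagosomes, was 2.08-fold higher and the protease gene CTSD 1.46-fold higher. MAP1LC3C (ENSG00000197769.5, chr1:241995490-241999073), another ATG8 protein, was at 2.38, 2.30 and 2.74 CPM in DMSO and at 102, 109 and 98.0 CPM with the combination, 41.2-fold higher (log2 5.37, SE 0.136, adjusted p = 2.96e-15). LAMP1, the lysosomal membrane protein with the 6 E-boxes shown above, moved little, from 318, 332 and 311 CPM to 349, 361 and 373 CPM (1.13-fold, adjusted p = 0.0304), and was called in 2 of the 6 fits without 1 library. TFEB, a master regulator of the group, overlapped between the groups (adjusted p = 0.693). Among 32 ABC transporters 17 rose and 6 fell. The cholesterol exporter ABCA1 was 3.68-fold higher and the lysosomal peptide transporter ABCB9 2.6-fold higher.

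Some death genes rose and some survival genes fell, while the pro-apoptotic group as a whole leaned neither way. BMF (ENSG00000104081.13, chr15:40087890-40108892), a BH3-only protein that binds and blocks BCL2 proteins, was at 3.16, 2.30 and 3.38 CPM in DMSO and at 118, 123 and 119 CPM with the combination, 40.4-fold higher (log2 5.34, SE 0.103, adjusted p = 2.99e-16). BCL2L11, the BH3-only protein BIM, rose from 12.4, 12.6 and 12.9 CPM to 28.4, 29.5 and 29.6 CPM, HRK was 2.74-fold higher and BBC3 (PUMA) 1.96-fold higher. PMAIP1 (NOXA) fell by 1.43 on the log2 scale, so the pro-apoptotic group stood at 4 rising and 4 falling of 13, and at 5 and 3 with total counts alone. That is 30.8% each way by the main fit, beside 27.1% rising and 26.5% falling over all genes tested. All 4 rising members are named here, but PMAIP1 is the only falling member named. Of 10 anti-apoptotic genes 6 fell and 1 rose. MCL1 was at 422, 461 and 439 CPM in DMSO and at 208, 201 and 195 CPM with the combination, 2.19-fold lower, BCL2 was 2.18-fold lower and BCL2L1 1.85-fold lower, while CFLAR, the inhibitor of caspase 8, rose 1.64-fold. Of 26 p53 targets 17 rose and 5 fell. TP53INP1, an autophagy and stress protein, was 7.16-fold higher and the kinase inhibitor CDKN1A 1.25-fold higher. MDM2, which degrades p53, did not pass (adjusted p = 0.209), and the nuclease AEN was 3.35-fold lower.

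Of 36 interferon-stimulated genes 20 rose and 4 fell, with 15 to 19 rising without 1 library. Their sum was 743, 749 and 756 CPM in DMSO and 801, 824 and 824 CPM with the combination. IFIT1, which binds foreign RNA, was at 1.48, 1.55 and 1.43 CPM in DMSO and at 7.70, 6.92 and 6.25 CPM with the combination, 4.66-fold higher, IFIT2 was 4.06-fold higher and the antiviral enzyme RSAD2 rose from 0.322, 0.0676 and 0.211 CPM to 1.54, 0.697 and 1.45 CPM. Of 18 class I antigen presentation genes 4 rose and 1 fell, and 2 rose without combination replicate 2 or 3 or DMSO replicate 1. B2M (adjusted p = 0.6) overlapped between the groups, and TAP2, a peptide transporter, was 1.4-fold lower.

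Lineage and surface genes shifted in both directions. Of 14 melanocyte genes tested, out of 26 listed, 6 rose and 1 fell, but 6 of the 14 belong to the BRAF network, and outside it 3 rose and 1 fell. MITF rose from 16.8, 19.7 and 16.2 CPM to 26.7, 26.8 and 28.5 CPM. The neural crest factor FOXD3 was at 6.83, 5.74 and 4.91 CPM in DMSO and at 82.3, 84.0 and 74.8 CPM with the combination, 13.9-fold higher (adjusted p = 9.18e-15), and SNAI2, another neural crest factor, was 10.1-fold higher. PMEL, a melanosome protein, did not pass (adjusted p = 0.286). ZEB2 was 2.07-fold higher and ZEB1, its paralogue, 2.21-fold lower, while AXL, a receptor kinase of dedifferentiated melanoma, was 1.35-fold lower. FOXC2, a mesenchymal forkhead factor, was 9.99-fold lower. Among 62 cadherins and protocadherins tested, out of 100 listed, 33 rose and 2 fell, and PCDH10 went from 14.9, 14.4 and 14.1 CPM to 60.5, 62.3 and 67.1 CPM. Of 30 integrins and laminins 13 fell and 4 rose: ITGA6 was 3.03-fold lower and ITGA3 2.12-fold lower. Of 22 matrix proteases and inhibitors 8 fell and 4 rose, which became 7 and 6 with total counts alone, where the median turned from -0.091 to 0.072. PLAUR, the urokinase receptor, was 6.63-fold lower and the inhibitor TIMP3 fell from 896 ± 96.3 to 318 ± 24.7 CPM. SEMA3C, a secreted guidance protein, was 3.77-fold higher.

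Markers of other cell types were checked beside these changes. Of 14 markers 7 could be tested: 3 rose and 1 fell, and their summed level was 21.2 to 26.9 CPM in DMSO and 38.3 to 48.1 CPM with the combination. The epidermal keratin KRT14 rose 2.49-fold, the fibroblast proteoglycan LUM 3.16-fold and the leukocyte phosphatase PTPRC 3.41-fold. The endothelial cadherin CDH5 fell by 0.53 on the log2 scale, and KRT5 (-0.44, adjusted p = 0.31), PECAM1 (-0.65, adjusted p = 0.203) and DCN (0.31, adjusted p = 0.545) did not pass. KRT1 was at 0 in all 12 libraries, and EPCAM, CD3E, CD14, HBB and ALB had at most 10 counts in any. The part of other cells in any change was not tested.

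Gene type and level moved with direction. Of 752 intergenic long noncoding genes 270 (35.9%) rose and 72 (9.57%) fell, and of 654 genes annotated as antisense 238 (36.4%) rose and 47 (7.19%) fell, whereas of 13563 protein-coding genes 27.4% rose and 30.2% fell. By the mean level over all libraries, the lowest of 4 equal bins had 30.8% rising and 6.93% falling and the highest 14.3% rising and 47.2% falling. Of the intergenic long noncoding genes 544 lay in the lowest bin, and of the antisense genes 504. Within that bin 33.6% of the intergenic and 32.3% of the antisense genes rose, beside 37.1% of the protein-coding genes. Of 478 ZNF genes, which encode zinc finger factors, 155 rose and 77 fell, which became 230 and 33 with total counts alone, and ZNF608 was 6.05-fold higher. On chromosome 19, where the family is clustered, 77 of 236 rose and 31 fell, against 78 of 242 rising and 46 falling elsewhere.

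**Figure D4:**
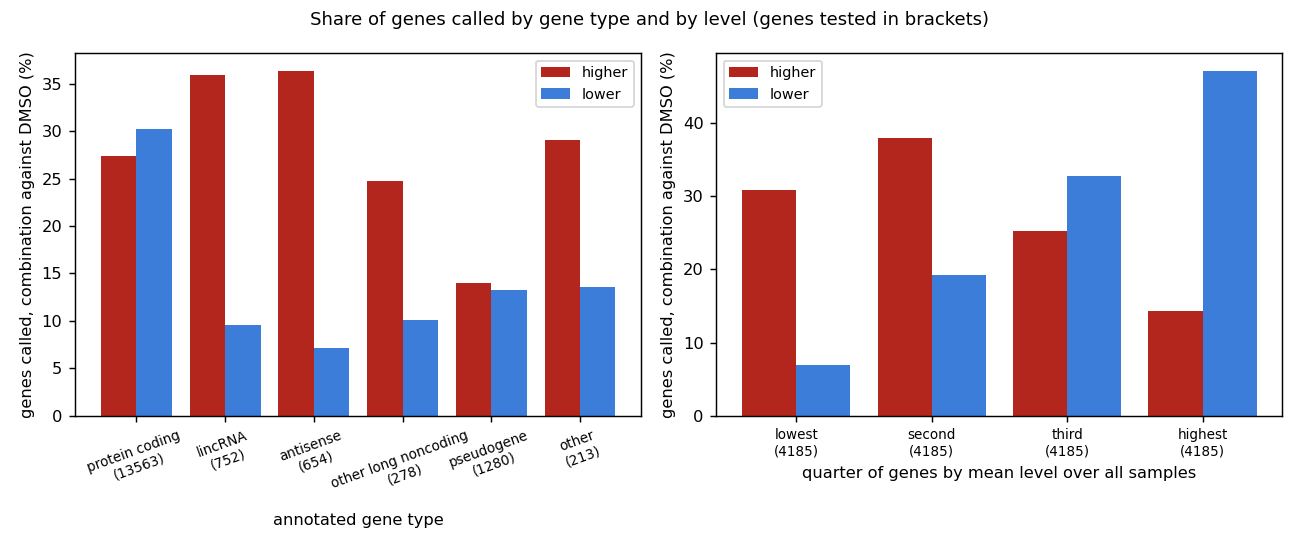
Percent of tested genes called higher (red) or lower (blue) with the combination relative to DMSO, by annotated gene type on the left and by 4 equal bins of mean level on the right, with the number tested in brackets. In the highest bin 47.2% of genes are lower and 14.3% higher, and among antisense genes 36.4% are higher and 7.19% lower.

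Replication-dependent histone genes rose as a class: 49 of 58 tested rose, out of 90 listed, and none fell by edgeR, by DESeq2 or at an unadjusted p under 0.05 (0 of 58), with a median of 1.82. Most of their mRNAs end in a stem-loop and not in poly(A), and the libraries were made from poly(A) RNA, so only a part of them was read. The class held 74.0, 76.3 and 74.9 CPM in DMSO and 226, 198 and 221 CPM with the combination. HIST1H1B, a linker histone, rose from 0.516, 0.135 and 0.475 CPM to 5.89, 5.30 and 5.52 CPM. With vemurafenib alone the class held 171 to 199 CPM and with tretinoin alone 78.6, 172 and 154 CPM in replicates 1, 2 and 3, so 1 tretinoin library lay at the DMSO level.

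Genes of the retinoid pathway moved in both directions. Of 11 genes for retinoic acid synthesis, binding and breakdown that could be tested, out of 19 listed, 6 rose and 3 fell; 3 rose without combination replicate 2 and 4 without any other single library. DHRS3 (ENSG00000162496.8, chr1:12567910-12617731), which reduces retinal back to retinol, was at 24.4, 19.3 and 18.6 CPM in DMSO and at 407, 393 and 407 CPM with the combination, 19.4-fold higher (log2 4.28, SE 0.097, adjusted p = 1.14e-15). CRABP2, which carries retinoic acid to its receptors, was 3.21-fold higher and STRA6, a retinol transporter, 1.66-fold higher. CYP26A1, an enzyme that degrades retinoic acid and has the DR5 element shown above, had 0.193, 0.405 and 0.264 CPM in DMSO and 0.605, 0.929 and 0.453 CPM with the combination (adjusted p = 0.0496), and its relative CYP26B1 had 7.45 and 9.61 CPM (adjusted p = 0.0454); each was called in 2 of the 6 fits without 1 library. ALDH1A3, which makes retinoic acid, was 3.29-fold lower. Among 15 retinoid response genes 7 rose and 3 fell. RARB, the receptor gene whose promoter is printed first, was at 1.35, 1.28 and 1.43 CPM in DMSO and at 17.7, 25.2 and 23.3 CPM with the combination. NRIP1, a corepressor of nuclear receptors, was 1.89-fold higher. TGM2, a transglutaminase, was 2.37-fold lower and RARRES3 did not pass (adjusted p = 0.0589).

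The values with each drug, all measured against the same 3 DMSO libraries, can be set side by side. Vemurafenib alone raised 26.4% of all genes tested and lowered 26.3%, whereas for tretinoin alone these shares were 3.48% and 2.2%. The ERK feedback genes had 10 of 13 falling with vemurafenib and 1 with tretinoin, ribosome biogenesis 65 of 68 and 0, chaperones 32 of 38 and 6, and YAP genes 16 of 21 and 8. The mitochondrially encoded genes rose in all 13 with either drug, with medians of 0.60 for vemurafenib and 0.88 for tretinoin against 1.24 for the combination. Their sum was 7471 to 7754 CPM with vemurafenib and 11127, 7232 and 7616 CPM in tretinoin replicates 1, 2 and 3, so only tretinoin replicate 1 lay above the vemurafenib libraries. The share of all counts in mitochondrial genes was 1.494%, 0.957% and 1.026% in the same tretinoin libraries and 1.089% to 1.11% with vemurafenib. SPRY4 stood at 0.969 CPM with vemurafenib and 93.4 CPM with tretinoin. DHRS3 stood at 69.2 CPM with vemurafenib and 156 CPM with tretinoin. RARB stood at 9.47 CPM with vemurafenib and 2.47 CPM with tretinoin, and MAP1LC3C at 40.7 and 3.51 CPM. BMF stood at 102 and 3.24 CPM and TXNIP at 128 and 15.6 CPM. The combination was above both drugs in DHRS3, RARB and MAP1LC3C, each by a test passed against either drug, while for BMF (adjusted p = 0.0658) and TXNIP (adjusted p = 0.949) the difference from vemurafenib did not pass. The edgeR test of additivity described below did not pass for DHRS3 (adjusted p = 0.18), RARB (adjusted p = 0.579) or MAP1LC3C (adjusted p = 0.0901).

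Relative to vemurafenib alone, 2.27% of the genes tested were higher with the combination and 2.2% lower. The retinoid groups had 4 of 11 and 6 of 15 members higher and none lower by edgeR or DESeq2 (0 and 1 lower at an unadjusted p under 0.05), the stress response 10 of 30 higher, the mitochondrially encoded genes 5 of 13 higher, and the HOX clusters 10 of 33 higher, against 14 of 33 higher and 7 lower relative to DMSO. HOXA5, a homeobox factor, was at 12.2 ± 0.766 CPM with vemurafenib and 46.9 ± 2.55 CPM with the combination (log2 1.94, SE 0.097, adjusted p = 5.38e-10). TF, the iron carrier transferrin, was at 3.61 CPM with vemurafenib and 19.2 CPM with the combination. LOXL4, which crosslinks collagen, was at 59.7 and 182 CPM, close to the 193 CPM of tretinoin alone. TINAGL1, a matrix protein, was at 64.9 CPM with vemurafenib, 599 CPM with tretinoin and 235, 236 and 229 CPM with the combination, against 226, 215 and 244 CPM in DMSO. The combination thus lay between the drugs and overlapped DMSO (adjusted p = 0.713). BCL2L11 was higher than with vemurafenib (20.1 and 29.2 CPM, adjusted p = 0.000531), as was WARS (192 and 265 CPM, adjusted p = 0.000462).

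Of 28 receptor tyrosine kinases 7 were lower than with vemurafenib alone and 3 higher, and of 21 YAP genes 3 were lower and 1 higher. CYR61 was at 93.5 CPM with vemurafenib and 50.4 CPM with the combination (adjusted p = 0.000114). FZD8 stood at 70.4 CPM in DMSO, 50.6 with tretinoin, 29.2 with vemurafenib and 14.1 with the combination, the lowest of the 4. CDKN1C, which rose with the combination relative to DMSO, was lower than the 46.8 CPM of vemurafenib alone, and so was CD24, a surface glycoprotein, at 7.51 against 19.8 CPM. HSPA8 was lower with the combination than with vemurafenib as well (1767 and 2182 CPM, adjusted p = 0.0143). Relative to tretinoin alone, 24.1% of the genes tested were higher with the combination and 25% lower. That comparison included 59 of 68 ribosome biogenesis genes and 31 of 38 chaperones lower, and the retinoid metabolism group with 2 higher and 5 lower, since STRA6, at 161 CPM with tretinoin and 106 CPM with the combination, was among the latter (adjusted p = 1.59e-05).

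A departure from additivity on the log2 scale was tested as the effect of tretinoin in the presence of vemurafenib minus its effect in DMSO. It passed for 0.382% of the genes tested in the positive direction and 0.424% in the negative direction. FOXC1 (ENSG00000054598.6, chr6:1609972-1613897), a forkhead factor, was at 34.6, 32.4 and 31.2 CPM in DMSO, 39.7 ± 2.21 with tretinoin, 38.0 ± 1.11 with vemurafenib and 80.5, 83.2 and 85.1 CPM with the combination. Each combination library lay far above every library of the other 3 groups (interaction 0.85 on the log2 scale, SE 0.099, adjusted p = 0.000467). IFFO2, an intermediate filament family member, went from 50.4 CPM in DMSO to 32.4 CPM with vemurafenib, 86.2 with tretinoin and 114 with the combination (interaction 1.04). HOXA5 had an interaction of 1.03 (adjusted p = 0.00238). CTGF, a matricellular protein and YAP target, was at 104 CPM in DMSO, 47.9 with vemurafenib, 87.8 with tretinoin and 83.2 with the combination, so the fall with vemurafenib was smaller when tretinoin was present (interaction 1.04, adjusted p = 0.000854). EPHA2 and the kinase RIPK4 had the same pattern, with interactions of 0.86 and 1.13.

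In the negative direction, PRRX1, a mesenchymal homeobox factor, was at 68.1 CPM in DMSO, 96.8 with tretinoin, 56.8 with vemurafenib and 31.9, 34.2 and 36.6 CPM with the combination, the lowest of the 4 groups (interaction -1.23, SE 0.131, adjusted p = 0.00045). SLITRK6, a neuronal membrane protein, was at 88.3 CPM in DMSO, 68.7 with tretinoin, 124 with vemurafenib and 51.6 with the combination (interaction -0.89). ADAM19, a membrane protease, was at 36.7 CPM with tretinoin and 7.41 CPM with the combination, where DMSO was at 15.1 CPM (interaction -1.68). DACT1, a regulator of Wnt signalling, was at 6.66 CPM with vemurafenib and 2.53 CPM with the combination, where DMSO was at 3.28 CPM (interaction -1.50), and the difference of the combination from DMSO did not pass (adjusted p = 0.0947).

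**Figure D5:**
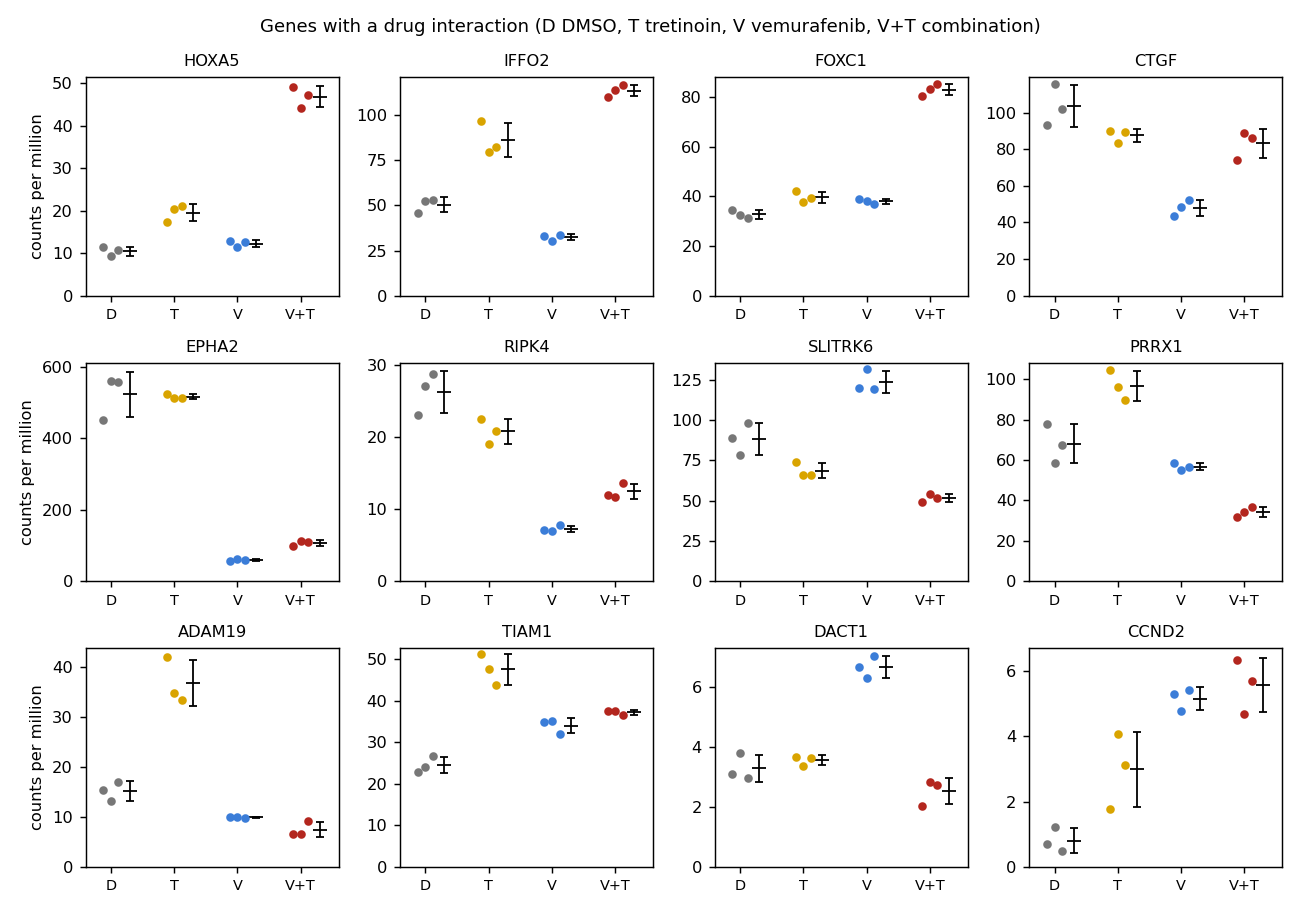
Level in CPM of 12 genes with an interaction of the drugs, on linear axes that start at 0, with 1 point per library and the mean ± SD beside it for DMSO (D), tretinoin (T), vemurafenib (V) and the combination (V+T). FOXC1 stays between 31.2 and 42.0 CPM in the first 3 groups and lies between 80.5 and 85.1 CPM with the combination, and SLITRK6 and PRRX1 are lowest with the combination.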

How the data were processed

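RNA of 12 A375 libraries, 3 per group, was sequenced as paired ends from poly(A)-selected, strand-marking libraries. The authors aligned reads with STAR 2.5.3a to GRCh38 with GENCODE annotation and counted fragments per gene, ignoring strand and dropping fragments that overlap more than 1 gene; the unit of the deposited values is raw counts. Groups came from the sample titles.

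Here, edgeR 4.0.16 (R 4.3.3) filtered genes by group, scaled by TMM and fitted all 12 libraries with a quasi-likelihood model, in place of the study's DESeq2. An adjusted p under 0.05 was called. On simulated counts for the combination and DMSO (16740 genes), it recovered 100 of 100 genes changed by 1 on the log2 scale and 68 of 100 changed by 0.5, with 7 false calls. The changed genes were drawn only from those above a floor of mean counts, and every gene was given the same dispersion. Far fewer genes were changed than were called in the data. Recovery of low or noisier genes was not tested. DESeq2 1.42.0, other scalings, filters and left-out libraries were the alternatives. Depth is given as total counts. Replicate pairs were checked for repeated libraries and differed by a chi-square per degree of freedom of 4.223 to 9.173.

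The groups of genes, the named genes and the comparisons were chosen with earlier results of these data known. Named were the 10 largest rises and the 10 largest falls with non-overlapping groups and at least 5 CPM, key members of each group with up to 3 further members of largest change, and the genes of smallest p against vemurafenib (8 each way) and for the interaction (5 each way); not all are printed, and some genes are not reported here. Of 308 names in the study's TCGA-based BRAF network 296 were tested. Groups were described by counts and medians, with no test. Gene names and coordinates came from GENCODE, and promoters from RefSeq. Python 3.11.15 was used for the lists and motifs.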

Additional observations from a re-analysis of the deposited data

Results flagged for a closer look

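The genes below are singled out because the effect of tretinoin differed between cells with and without vemurafenib, by the interaction term of the edgeR fit at an adjusted p under 0.05. Values are the interaction on the log2 scale, the effect of tretinoin with vemurafenib minus its effect without. For genes already described, it was 1.03 for HOXA5, 0.862 for EPHA2, 1.037 for CTGF, 1.038 for IFFO2, 0.849 for FOXC1, 1.125 for RIPK4 and 0.453 for TINAGL1, and it was -0.567 for FZD8, -0.894 for SLITRK6, -1.233 for PRRX1, -1.681 for ADAM19, -1.504 for DACT1 and -1.851 for CCND2.

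IRF1, an interferon response factor, had an interaction of 0.668 and stood at 26.1 CPM in DMSO, 29.5 with tretinoin, 12.4 with vemurafenib and 22.4 with the combination. KLF9, a Kruppel-like factor, had 0.698, with means of 69.3 CPM in DMSO, 31.9 with vemurafenib and 59.6 with the combination, and 90.1, 73.2 and 76.7 CPM in the 3 tretinoin libraries. HOXB2 had 0.717 and SAV1, a scaffold of the Hippo pathway, 0.674. RASSF8 had -0.62, and TIAM1, an exchange factor for RAC1, -0.821, with 24.6 CPM in DMSO, 47.6 with tretinoin, 34.0 with vemurafenib and 37.2 with the combination. ID2, an inhibitor of basic helix-loop-helix factors, had -1.564, with 1.32, 2.09, 5.90 and 3.20 CPM.

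In 4 genes of low level the value rests on very low DMSO libraries: CD34 (-3.404), STAB1 (-3.103), ITGA2B (-2.495) and HIST1H1B (-3.741) were at 0.191, 0.326, 0.303 and 0.375 CPM in DMSO. With tretinoin alone, CD34 was at 1.10, 3.49 and 3.07 CPM, STAB1 at 1.47, 5.29 and 3.40 CPM, ITGA2B at 1.03, 2.27 and 2.30 CPM and HIST1H1B at 1.61, 7.90 and 5.15 CPM in replicates 1, 2 and 3. In each of the 4 genes tretinoin replicate 1 was the lowest of its group. The value of CCND2 has the same limit: it rests on 11, 18 and 9 counts in DMSO. With tretinoin alone CCND2 was at 1.76, 4.07 and 3.12 CPM, replicate 1 again the lowest.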

How the results depend on the processing

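Of the counts over all genes under the alternatives, 57 stayed within 1.5 times the value reported and 13 moved further. Relative to DMSO, requiring a 2-fold change left 1708 genes higher and 773 lower, and total counts alone gave 2916 lower. Without 1 library at a time, 3923 to 4173 genes were higher and 4004 to 4242 lower. Relative to vemurafenib, a fit of only the 6 libraries compared gave 584 higher and 685 lower. The interaction moved most: DESeq2's Wald test called 126 positive and 132 negative, no filter on low counts 389 and 221, the replicate block 39 and 36, and total counts alone 36 and 132. The cause of these moves was not tested. Counts of group members stayed within 1.5 times in 1565 cases and moved in 227. Named genes kept their call in 3569 cases, lost it in 85, gained it in 17, and none reversed. Same-numbered DMSO and combination libraries did not deviate together over all genes (r = 0.065, -0.048 and 0.074), so no pairing by number was seen. A weak shared deviation could be missed in this way, and whether same-numbered libraries were prepared together was not tested. With the replicate number as a block, 4320 genes were higher and 4260 lower than in DMSO. Counting depth limits low genes such as CYP26A1 most.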

Other observations

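Among the largest rises were 4 genes not yet described. NINL, a centrosomal protein, was at 1.80, 1.96 and 1.53 CPM in DMSO and at 52.6, 42.6 and 44.6 CPM with the combination, 26.5-fold higher, with 18.8 CPM for vemurafenib alone and 2.51 CPM for tretinoin alone. The other 3 started from at most 8 counts in any DMSO library: MATN2, a matrix protein, reached 11.7 CPM, WISP2, a matricellular protein, 7.64 CPM and CSDC2, an RNA-binding protein, 5.08 CPM. Each of the 4 passed in all 6 fits without 1 library.

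Of 18 nuclear receptors 8 rose and 4 fell (5 rose without DMSO replicate 3). The orphan receptor NR2F1 rose from 7.09 ± 1.87 to 31.0 ± 2.49 CPM (SD, n = 3) and NR5A2 was 8.63-fold higher, while NR4A1, an immediate early receptor, was 4.78-fold lower. In the PI3K, FOXO and insulin group 9 of 28 rose and 8 fell (11 and 5 with total counts alone), and INPP5D, a lipid phosphatase, was 4.56-fold higher and the kinase subunit PIK3CD 3.47-fold lower. Of 19 Notch genes 5 rose and 4 fell, with the ligand JAG1 3.27-fold and the target HES1 3.26-fold lower and the receptor NOTCH1 1.83-fold higher. The TGF-beta group had 10 of 31 in each direction, which became 15 rising and 8 falling with total counts alone, forkhead factors had 8 of 26 rising and 9 falling, which turned to 8 and 6, and mesenchymal switch genes had 2 of 14 rising and 8 falling (outside the BRAF network 2 and 5). Of 34 ephrins, Eph receptors and semaphorins 14 rose and 9 fell, of 31 collagens 13 and 8, and of 222 solute carriers 63 and 77, which became 85 and 53 with total counts alone. Kinesins (10 rising and 11 falling of 34) turned to 16 and 6 with total counts alone, and histone demethylases, deacetylases and methyltransferases (20 and 16 of 55) became 27 and 7. Of 19 snoRNA host genes 4 rose and 2 fell, and of 224 LINC-named genes 83 rose and 23 fell. Over all genes tested 27.1% rose and 26.5% fell. Near these shares were the Notch group (26.3% and 21.1%), the PI3K group (32.1% and 28.6%) and the TGF-beta group (32.3% each way). So were forkhead factors (30.8% and 34.6%), kinesins (29.4% and 32.4%) and solute carriers (28.4% and 34.7%). Cholesterol and fatty acid genes (25% and 31.2%) and histone demethylases, deacetylases and methyltransferases (36.4% and 29.1%) were near them too. Their counts do not set these groups apart from all genes. Class I antigen presentation (22.2% and 5.56%) and snoRNA host genes (21.1% and 10.5%) lay below both shares. Mitosis genes (19.6% and 33.3%) had a falling share near the 33.2% of protein-coding genes in the second highest bin of level.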
